A study of Homo sapiens with 10 samples.

Results

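Mucus of the airway is built from large glycoproteins, the mucins, and from small proteins that are secreted with them. The genes described here are MUC1, MUC4 and MUC16, which encode mucins tethered to the cell membrane, MUC5AC and MUC5B, the gel-forming mucins of airway mucus, AGR2, TFF3, SCGB3A2, BPIFB1 and FCGBP. They were chosen by name, and their rows in the count table were found through the Ensembl gene IDs that a names table gives for those symbols. Of the 10 genes, 9 had a row among the 57736 in the table, and FCGBP was not analysed here because the ID given for it has no row.

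RNA was sequenced from 10 libraries of 3 human lung cancer cell lines, each with its own p53 mutation. The mutation is V157F in the NCI-H2087 line, R158L in the NCI-H441 line and R158P in the NCI-H2110 line. In each line, cells given an siRNA against p53 were set against cells of the same line given a control siRNA, and all groups of a line carry its mutation. Each siRNA was represented by n = 2 libraries in both NCI-H2087 and NCI-H441 but by a single library in NCI-H2110, which therefore gives no replicate check of the siRNA. Titles call the treated cells a knockout, while the protocol names an siRNA, and they are described here as a knockdown. Each mutation occurs in 1 line, so mutation and line cannot be told apart. The labels do not say whether replicates were separate cultures, and p-values measure the spread between these libraries only.

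Goblet cells and mucous gland cells store MUC5AC and MUC5B in granules and release them to form the mucus gel, whereas the tethered mucins stay on the apical surface of many epithelial cells. AGR2 is a protein disulfide isomerase of the endoplasmic reticulum, and mice without it fail to make intestinal mucin. TFF3 is a trefoil peptide secreted with mucus, SCGB3A2 a secretoglobin of club cells and BPIFB1 a secreted BPI-fold protein of the upper airway. Mucins receive most of their sugar by O-glycosylation in the Golgi, so the enzymes of that pathway are described after the genes themselves.

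Levels are counts per 1000000 counts (CPM) on library sizes scaled by TMM, and changes are log2 fold changes of p53 siRNA over control siRNA ± SE from edgeR. A gene was called at an adjusted p below 0.05. Library totals ran from 18336672 to 25810934 counts. All 9 genes passed the filter on low counts, 3 of them only through libraries in which they were high: SCGB3A2 through both control siRNA libraries of NCI-H2087, TFF3 through 1 of these and BPIFB1 through the control siRNA library of NCI-H2110. Tests of these 3 genes against other groups are therefore not independent of the filter. In bulk RNA, fewer expressing cells and less RNA per cell cannot be told apart.

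The clearest feature of these genes was how far the lines differed. NCI-H2110 expressed both gel-forming mucins, MUC16 and AGR2 at levels that the other lines did not approach. NCI-H441 expressed the tethered mucins MUC1 and MUC4 strongly and the gel-forming mucins at or near 0. NCI-H2087 had low MUC1 and MUC4, traces of MUC5AC and MUC5B, and, with control siRNA, the highest SCGB3A2. Set against NCI-H441 and NCI-H2087 together, NCI-H2110 was higher for 6 of the 8 genes that did not pass the filter through NCI-H2110 alone (MUC1, MUC4, MUC5AC, MUC5B, MUC16 and AGR2) and lower for 0. Over all 17978 genes tested in the same comparison 59.7% were called, 30.8% as higher and 28.9% as lower (27.2% and 30.6% without genes that passed through NCI-H2110 alone), so lines differed in most genes. The median log2 difference was 2.91 over those 8 genes and -0.11 over the 17005 genes chosen the same way.

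**Figure D1:**
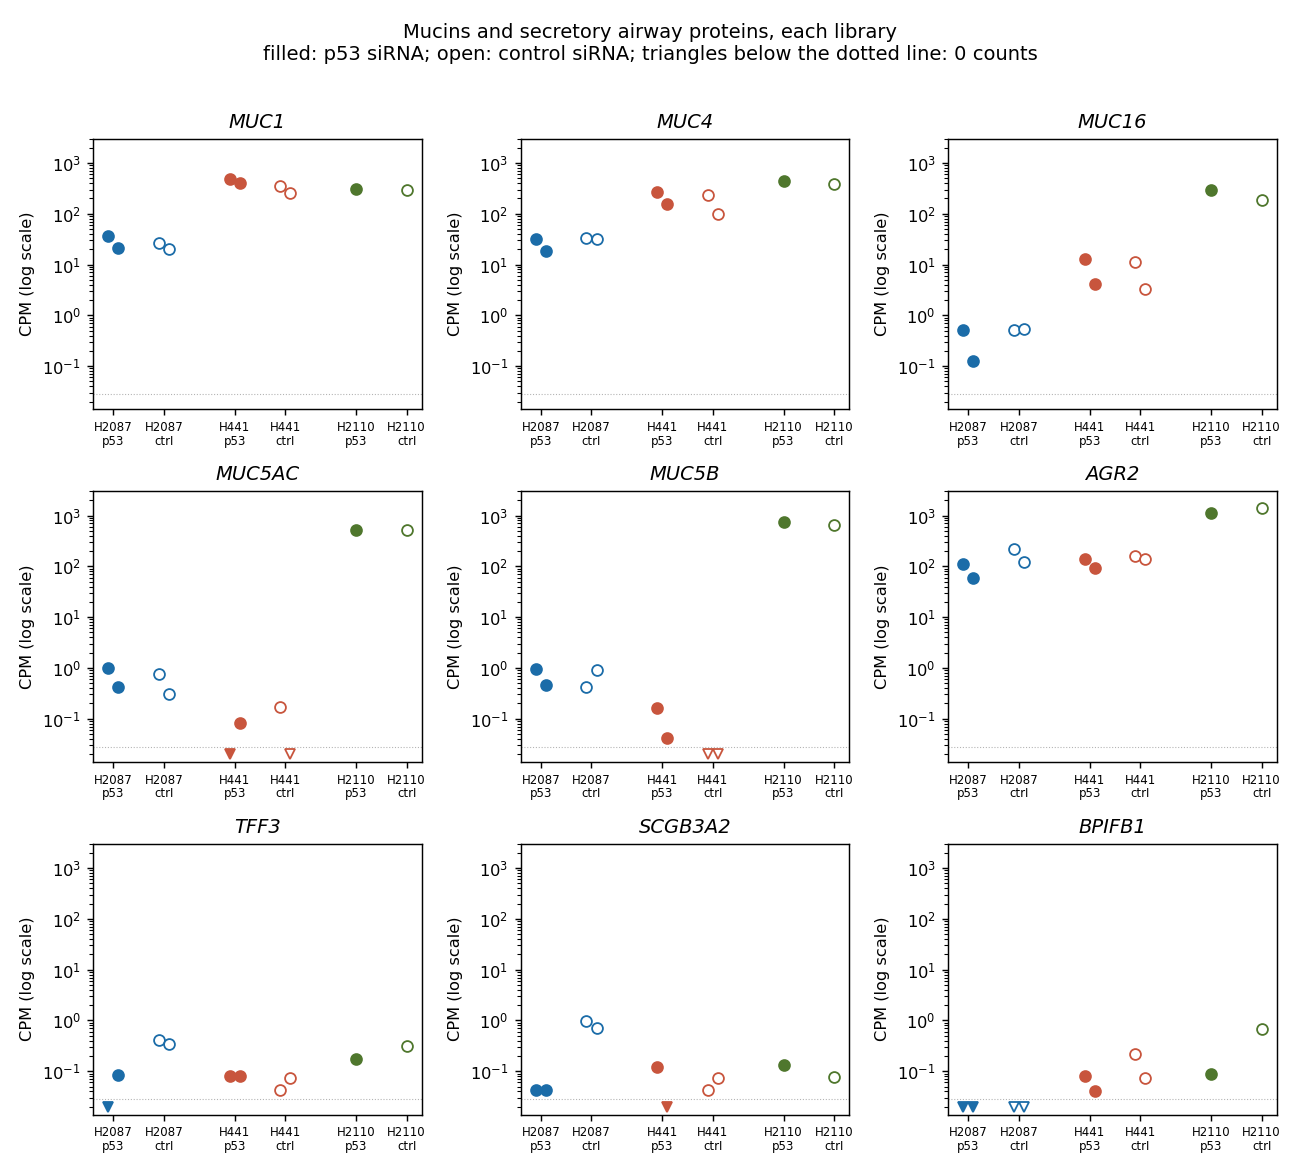
CPM on a log axis of the 9 genes in each library, with p53 siRNA libraries filled and control siRNA libraries open, and libraries with 0 counts drawn as triangles below the dotted line. MUC5AC and MUC5B stood at 515 CPM or more in both NCI-H2110 libraries and below 1 CPM in all 8 libraries of the other lines, whatever the siRNA.

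MUC5AC is the mucin that airway goblet cells make in larger amounts on stimulation. It stood at 515 CPM with p53 siRNA and 517 CPM with control siRNA in NCI-H2110. In NCI-H2087 it stood at 0.983 and 0.423 CPM with p53 siRNA and 0.773 and 0.302 CPM with control siRNA. In NCI-H441 it held 0 and 2 counts with p53 siRNA and 4 and 0 counts with control siRNA. Every NCI-H2110 library was far above every library of the other lines, and in NCI-H2087 and NCI-H441 the arms overlapped. In control siRNA libraries MUC5AC was 1030-fold higher in NCI-H2110 than in NCI-H2087 (95% interval 687 to 1630) and 6500-fold higher than in NCI-H441 (2540 to 23900). These intervals, and those of the ratios below, are exact and cover counting error only.

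MUC5B, the neighbour of MUC5AC in the mucin cluster of chromosome 11 and the main gel-forming mucin of submucosal glands, followed the same order of lines. NCI-H2110 had 753 CPM with p53 siRNA and 637 CPM with control siRNA. NCI-H2087 had 0.940 and 0.465 CPM with p53 siRNA and 0.413 and 0.905 CPM with control siRNA. NCI-H441 had 4 and 1 counts with p53 siRNA and 0 counts in both control siRNA libraries. The traces in NCI-H2087 rested on 33 counts over both p53 siRNA libraries and 32 over both control siRNA libraries. With control siRNA, NCI-H2110 was 915-fold above NCI-H2087 (648 to 1340) and at least 10700-fold above NCI-H441, taking 3 counts over the group as the floor. An antisense gene, MUC5B-AS1, shares 434 exon bases with MUC5B and had 0 counts in all 10 libraries.

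The tethered mucins were ordered differently. MUC16, which sheds the antigen CA125, stood at 293 CPM with p53 siRNA and 185 CPM with control siRNA in NCI-H2110. It stood at 12.7 and 4.21 CPM with p53 siRNA and 11.2 and 3.25 CPM with control siRNA in NCI-H441, and NCI-H2087 had 0.513 and 0.127 CPM with p53 siRNA and 0.516 and 0.528 CPM with control siRNA. The lines did not overlap: NCI-H2110 was highest, NCI-H441 intermediate and NCI-H2087 lowest. Within NCI-H441, library 1 of each arm held about as much more MUC16 than library 2 in the p53 siRNA arm (3.01-fold) as in the control siRNA arm (3.45-fold).

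MUC1, a tethered mucin of most secretory epithelia that also signals through its cytoplasmic tail, was shared by NCI-H441 and NCI-H2110. It stood at 474 and 397 CPM with p53 siRNA and 360 and 252 CPM with control siRNA in NCI-H441, and at 313 CPM with p53 siRNA and 289 CPM with control siRNA in NCI-H2110. NCI-H2087 had 36.6 and 21.0 CPM with p53 siRNA and 26.2 and 20.5 CPM with control siRNA. The NCI-H2110 control siRNA library lay between those of NCI-H441, at 0.958 of their pooled level (0.932 to 0.985), and NCI-H2087 lay below all others. MUC4, a tethered mucin that binds the receptor ERBB2, stood at 448 CPM with p53 siRNA and 379 CPM with control siRNA in NCI-H2110. In NCI-H441 it held 270 and 156.7 CPM with p53 siRNA and 236 and 99.2 CPM with control siRNA, and in NCI-H2087 it held 32.0 and 18.5 CPM with p53 siRNA and 33.7 and 32.2 CPM with control siRNA. The 3 lines did not overlap for MUC4.

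AGR2 stood at 1135 CPM with p53 siRNA and 1431 CPM with control siRNA in NCI-H2110, where it ranked as gene 65 and gene 48 by CPM. In NCI-H2087 it stood at 110 and 58.6 CPM with p53 siRNA and 216 and 124 CPM with control siRNA, and in NCI-H441 at 137 and 92.7 CPM against 163 and 138 CPM. The control siRNA libraries of NCI-H2087 and NCI-H441 overlapped, and that of NCI-H2110 was 8.80-fold above NCI-H2087 and 9.59-fold above NCI-H441. Per kilobase of exon, which allows genes of different length to be compared, the NCI-H2110 control siRNA library held 503 CPM of AGR2, 61.3 of MUC1, 34.3 of MUC5B, 29.6 of MUC5AC, 17.8 of MUC4 and 4.21 of MUC16. On the same scale the NCI-H441 control siRNA libraries averaged 64.9 of MUC1, 52.8 of AGR2 and 7.87 of MUC4, and those of NCI-H2087 averaged 59.7 of AGR2, 4.95 of MUC1 and 1.55 of MUC4.

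SCGB3A2, TFF3 and BPIFB1 had few counts in every library. SCGB3A2 held 1 and 1 counts with p53 siRNA and 19 and 19 counts with control siRNA in NCI-H2087, 3 and 0 against 1 and 2 counts in NCI-H441, and 3 against 2 counts in NCI-H2110. TFF3 held 0 and 2 counts against 8 and 9 counts in NCI-H2087, 2 and 2 against 1 and 2 in NCI-H441, and 4 against 8 in NCI-H2110. BPIFB1 held 0 counts in all 4 NCI-H2087 libraries, 2 and 1 counts with p53 siRNA against 5 and 2 with control siRNA in NCI-H441, and 2 counts against 17 counts in NCI-H2110. For SCGB3A2 and TFF3 the 2 control siRNA libraries of NCI-H2087 held the most counts, with the NCI-H2110 control siRNA library level with them for TFF3. A count of 0 over both NCI-H2087 control siRNA libraries allows up to 0.0653 CPM.

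Between the replicated lines with control siRNA, 5 of the 9 genes were called, 3 lower and 2 higher in NCI-H2087, of which SCGB3A2 had passed the filter through NCI-H2087 alone, where 42.1% of all genes were called, 20.1% as lower and 22% as higher. The log2 difference of NCI-H2087 over NCI-H441 was -3.71 ± 0.30 for MUC1 (adjusted p = 1.5e-05), -2.35 ± 0.42 for MUC4 (adjusted p = 0.00175) and -3.77 ± 0.78 for MUC16 (adjusted p = 0.00381). MUC5B was called higher (adjusted p = 0.00211), at least 11.7-fold on the floor of 3 counts for NCI-H441. SCGB3A2 was 13.9-fold higher (4.41 to 70.3; adjusted p = 0.00926), a call lost with DESeq2 (adjusted p = 0.0666) and without control siRNA library 1 of NCI-H441 (adjusted p = 0.0627). MUC5AC (adjusted p = 0.0559), TFF3 (adjusted p = 0.0517) and BPIFB1 (adjusted p = 0.0685) missed the threshold. Limma-voom called TFF3 (adjusted p = 0.027) and BPIFB1 (adjusted p = 0.0253), and edgeR called MUC5AC without any filter on low counts (adjusted p = 0.0003). TFF3 had passed the filter through a control siRNA library of NCI-H2087 alone. AGR2 differed by 0.18 ± 0.34 (95% interval -0.58 to 0.93; adjusted p = 0.708).

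For NCI-H2110 over the mean of the other lines, fitted over both arms, the log2 differences were 7.01 ± 0.40 for MUC16 (adjusted p = 1.76e-08), 3.34 ± 0.23 for AGR2 (adjusted p = 1.2e-07), 2.47 ± 0.28 for MUC4 (adjusted p = 8.01e-06) and 1.64 ± 0.19 for MUC1 (adjusted p = 1.25e-05). MUC5B (adjusted p = 3.49e-11) and MUC5AC (adjusted p = 6.76e-11) were called with folds given above as ratios of counts. BPIFB1, with 17 counts in the NCI-H2110 control siRNA library that alone took it past the filter, is given by its counts above and not as a test. TFF3 (adjusted p = 0.261) and SCGB3A2 (adjusted p = 0.813) were not called. For MUC1 the mean of the other lines joins 2 very different levels, and NCI-H2110 was not above NCI-H441.

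With p53 siRNA, SCGB3A2 fell in NCI-H2087, a call on few counts in a gene that passed the filter through its control siRNA libraries alone. AGR2 was lower in every line and was called in none by the unpaired edgeR test. In NCI-H2087 it was called with same-numbered libraries paired and under several other settings, and was not called under 13. In NCI-H2087 1 of the 9 genes was called, as lower, where 8.68% of all genes were called and 3.69% as lower. Of all calls there 57.4% were higher, against 33.2% on library totals without TMM. In NCI-H441 0 of the 9 were called by edgeR, DESeq2 or limma-voom, where edgeR called 0.00556% of all genes; 1 of the 9 genes had an unadjusted p below 0.05, MUC5B on 5 counts. The 5 mucins had log2 ratios between -0.01 and 0.67 in NCI-H2110.

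SCGB3A2 is the gene whose call in NCI-H2087 passed the threshold, and AGR2 the gene that joins it in the paired fit, so the 250 bases before the start of each are shown. Both sequences are from RefSeq on GRCh38.p14, written 5′ to 3′ on the strand of the gene, SCGB3A2 from chr5:147878461-147878710 on the plus strand and AGR2 from chr7:16805000-16805249 on the minus strand. Capitals mark TATAAA, the core of a TATA box, and CAAGTG or its reverse complement CACTTG, a core bound by NKX2 homeodomain proteins.
SCGB3A2: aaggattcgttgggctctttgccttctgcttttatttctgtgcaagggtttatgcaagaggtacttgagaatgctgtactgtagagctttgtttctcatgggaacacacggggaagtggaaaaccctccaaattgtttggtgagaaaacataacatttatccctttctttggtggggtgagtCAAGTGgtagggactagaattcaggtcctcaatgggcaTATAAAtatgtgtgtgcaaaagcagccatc
AGR2: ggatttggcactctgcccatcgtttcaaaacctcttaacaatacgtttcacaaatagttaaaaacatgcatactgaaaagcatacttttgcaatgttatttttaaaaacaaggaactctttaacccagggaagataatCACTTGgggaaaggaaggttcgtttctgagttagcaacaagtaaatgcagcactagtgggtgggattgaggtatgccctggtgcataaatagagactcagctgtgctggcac
Over both strands, SCGB3A2 held TATAAA 30 to 25 bases and CAAGTG 68 to 63 bases before its start. AGR2 held CACTTG 112 to 107 bases before its start and no TATAAA. Of 27305 promoters of the same length, 11.1% held TATAAA and 9.59% held CAAGTG on either strand. The motif search also covered GGGCGG, the core of a GC box, found in 42.3% of promoters, and TGTTTAC, a forkhead core, found in 2.98%. Neither promoter printed held one of these, while the MUC1 promoter held GGGCGG at 4 positions, of which the last 3 overlap each other, and TATAAA. MUC4, MUC16 and BPIFB1 held GGGCGG once each. The promoter set had no entry for MUC5AC, MUC5B or TFF3, so these were not searched.

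SCGB3A2 fell in NCI-H2087 by 4.15 ± 0.98 on the log2 scale (adjusted p = 0.0305; 0.00544 with same-numbered libraries paired). Both p53 siRNA libraries had 1 count and both control siRNA libraries had 19, so the groups did not overlap. The gene passed the filter through these control siRNA libraries alone. The ratio of counts was 0.0514 (95% interval 0.0060 to 0.199). The call did not survive the loss of any NCI-H2087 library: leaving out each of the 4 gave an adjusted p between 0.104 and 0.132. DESeq2 gave it no adjusted p. In NCI-H441 and NCI-H2110 the gene held at most 3 counts per library, too few to show a change, and the difference between the changes of NCI-H2087 and NCI-H441 was not called (-4.20 ± 1.74, adjusted p = 0.347).

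AGR2 was lower with p53 siRNA in all 5 same-numbered pairs. The p53 siRNA library held 0.510 and 0.474 of the CPM of its control siRNA library in NCI-H2087 and 0.841 and 0.674 in NCI-H441. For the single pair of NCI-H2110 this share was 0.793. In NCI-H2087 the change was -1.01 ± 0.34 (95% interval -1.77 to -0.25; adjusted p = 0.0988), and with same-numbered libraries paired it fell by 1.02 ± 0.14 (adjusted p = 6.7e-05), where the paired fit called 25.4% of all genes and 12.6% as lower. It was also called by DESeq2 (adjusted p = 0.0218) and by unpaired edgeR on library totals (0.0471), without a filter on low counts (1.33e-05) and without p53 siRNA library 1 of NCI-H2087 (0.0428). Of the alternative settings, 13 did not call it, limma-voom among them. With 1 library left out, the change in NCI-H2087 ran from -1.53 to -0.54. The p53 siRNA and control siRNA libraries of NCI-H2087 did not overlap, although 110 and 124 CPM lie close. In NCI-H441 the change was -0.39 ± 0.34 (adjusted p = 0.933; 0.206 paired), and the NCI-H2110 ratio was -0.33. Across the 3 lines it was -0.62 ± 0.22 (adjusted p = 0.232; 0.0914 paired), in a fit that called 0 of the 9 genes, as DESeq2 and limma-voom did, and 0.395% of all genes. In that fit 3 of the 9 genes, AGR2, SCGB3A2 and BPIFB1, had an unadjusted p below 0.05. SCGB3A2 and BPIFB1 passed the filter through control siRNA libraries alone, so their p-values are not independent of it.

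**Figure D2:**
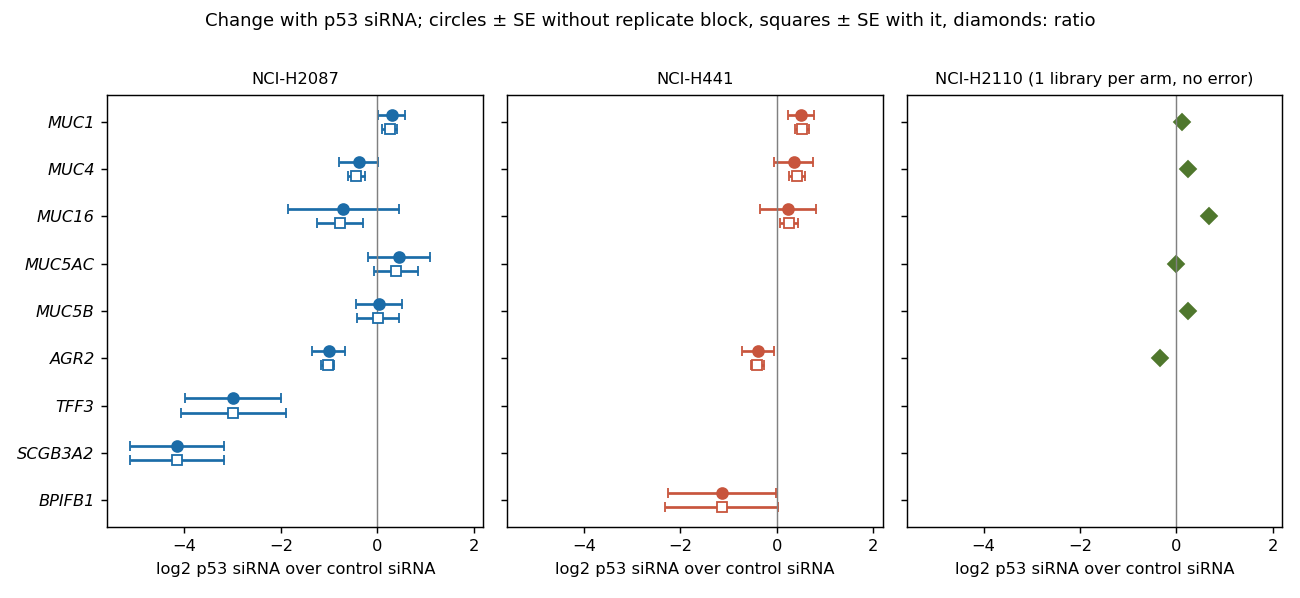
Log2 change with p53 siRNA (x axis) for each gene in the 3 lines, with circles for the fit without the replicate block, squares for the fit with it, bars for the SE and diamonds for the single ratio of NCI-H2110; a gene with fewer than 10 counts over both arms, or under 50 counts in both NCI-H2110 libraries, is left out. SCGB3A2 lies near -4 and AGR2 near -1 in NCI-H2087, and the AGR2 bars are shorter in the paired fit.

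None of the tethered mucins was called with p53 siRNA in a single line. MUC1 changed by 0.30 ± 0.28 in NCI-H2087 (adjusted p = 0.543) and by 0.51 ± 0.27 in NCI-H441 (95% interval -0.10 to 1.12; adjusted p = 0.933, 0.136 paired), and the NCI-H2110 ratio was 0.12. It was higher with p53 siRNA in all 5 same-numbered pairs, by 1.02-fold to 1.57-fold. In NCI-H441 both p53 siRNA libraries lay above both control siRNA libraries, and in NCI-H2087 the arms overlapped. Across the 3 lines MUC1 changed by 0.35 ± 0.17 (adjusted p = 0.382).

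MUC4 was lower with p53 siRNA in both pairs of NCI-H2087 and higher in both pairs of NCI-H441. Its same-numbered ratios were 0.948 and 0.576 in NCI-H2087 and 1.14 and 1.58 in NCI-H441, while the single NCI-H2110 pair had 1.18. The change was -0.38 ± 0.41 in NCI-H2087 (adjusted p = 0.607) and 0.35 ± 0.40 in NCI-H441 (adjusted p = 0.953). The difference between these changes was -0.73 ± 0.57 (95% interval -2.01 to 0.55; adjusted p = 0.634), and -0.86 ± 0.24 with same-numbered libraries paired (adjusted p = 0.0403). For that difference, 0 of the 9 genes were called without pairing and MUC4 alone with it, where 0.412% and 8.92% of all genes were called. Without pairing DESeq2 and limma-voom also called 0 of the 9, and 1 of them, SCGB3A2, had an unadjusted p below 0.05. SCGB3A2 passed the filter through the control siRNA libraries of NCI-H2087 alone, so its p is not independent of it.

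MUC16 had same-numbered ratios of 0.995 and 0.240 in NCI-H2087 and 1.13 and 1.29 in NCI-H441, while the single NCI-H2110 pair had 1.59. The low ratio in NCI-H2087 compares 3 counts with 14. The changes were -0.70 ± 1.15 in NCI-H2087 (adjusted p = 0.760) and 0.23 ± 0.58 in NCI-H441 (adjusted p = 0.990), and the NCI-H2110 ratio of 0.67 was the largest of the 6 genes with at least 50 counts there. None of those 6 passed 2-fold in NCI-H2110, as 1.49% of all 12385 genes with that many counts did. MUC5AC had a ratio of -0.01 and MUC5B of 0.24 in NCI-H2110, the line where they are expressed. In NCI-H2087 MUC5AC changed by 0.46 ± 0.64 (adjusted p = 0.713) and MUC5B by 0.03 ± 0.48 (adjusted p = 1), on 56 and 65 counts over both arms.

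**Figure D3:**
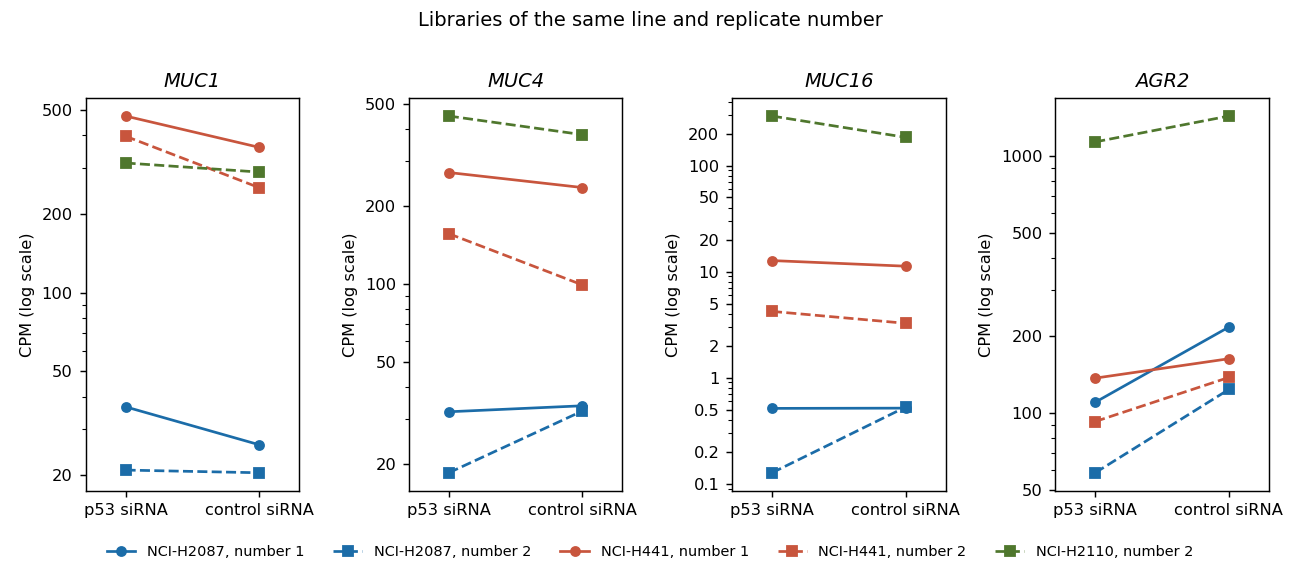
CPM on a log axis of MUC1, MUC4, MUC16 and AGR2 with p53 siRNA (left) and control siRNA (right), with a line joining libraries of the same cell line and replicate number. All 5 lines of AGR2 are lower on the left, and those of MUC4 slope one way in NCI-H2087 and the other way in NCI-H441 and NCI-H2110.

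TFF3 in NCI-H2087 held 2 counts over both p53 siRNA libraries and 17 over both control siRNA libraries, a ratio of 0.115 (0.0129 to 0.484). Its fitted change was -2.99 ± 1.00 (edgeR adjusted p = 0.0982, and 0.0573 paired), and limma-voom called it (adjusted p = 0.0440). TFF3 passed the filter through control siRNA library 1 of NCI-H2087 alone, so these tests are not independent of the filter. BPIFB1 in NCI-H2110 held 2 counts with p53 siRNA and 17 with control siRNA, a ratio of 0.130 (0.0145 to 0.546) between 1 library each, below the 50 counts asked of a ratio there.

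The genes whose levels over the 10 libraries were most like each of these were sought among 11109 genes with a mean of at least 5 CPM. Pearson's r was taken on log2 counts divided by library sizes applied by row order instead of by library, so it is not an r of CPM. The choice of closest gene and the r within groups can depend on that division. It was 0.998 between MUC5B and EDIL3, 0.995 between MUC4 and BCAS1 and 0.992 between MUC1 and DTX4. Between MUC5AC and FGG it was 0.989, and between AGR2 and PTP4A1 0.982. For MUC16 the closest was a gene without a symbol in the names table, ENSG00000087916, with r of 0.986. The genes near the limit of detection had looser matches, BPIFB1 with DSTNP2 at 0.936, SCGB3A2 with PCDHB14 at 0.906 and TFF3 with PBXIP1 at 0.900. The 10 libraries fall into 3 lines that differ in most genes, so these values include the order of the lines. Within groups the r of each gene with its closest match was 0.994 for MUC5B, 0.933 for MUC1, 0.923 for MUC4, 0.884 for AGR2, 0.813 for SCGB3A2, 0.691 for MUC16, 0.165 for BPIFB1, -0.10 for MUC5AC and -0.29 for TFF3.

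Several other mucins were highest in NCI-H441. Of 14 further mucin genes listed, 8 passed the filter, and between NCI-H2087 and NCI-H441 with control siRNA 5 were lower in NCI-H2087 and 0 higher, where 20.1% and 22% of all genes were. MUC22, which passed through NCI-H441 alone, is 1 of the 5. MUC21, a tethered mucin, stood at 0 and 0.452 CPM in NCI-H2087 and 695 and 499 CPM in NCI-H441 with control siRNA, and at 0.0787 CPM in NCI-H2110. MUC20 stood at 1.03 and 1.06 CPM in NCI-H2087, 151 and 98.8 CPM in NCI-H441 and 20.1 CPM in NCI-H2110. NCI-H441, with gel-forming mucins at or near 0, had the most MUC21 and MUC20. Set against the other lines, NCI-H2110 was higher for 3 and lower for 3 of the 7 that did not pass through it alone. Of all genes chosen the same way, 27.2% were higher and 30.6% lower. The lower mucins were MUC21, MUC22 and MUC3A. The intestinal gel-forming mucin MUC2 and the gastric MUC6 did not pass the filter, and neither went above 0.217 CPM.

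With p53 siRNA 1 of these 8 mucins was called in NCI-H2087, where 8.68% of all genes were called. The called gene was MUC15, a tethered mucin. It held 0 counts in both p53 siRNA libraries and stood at 0.464 and 0.528 CPM with control siRNA (adjusted p = 0.0251), and the call was lost without any 1 of the 4 NCI-H2087 libraries (adjusted p of 0.0755 to 0.131). In the paired fit MUC3A was called as higher and OVGP1 as lower besides MUC15, where 12.8% of all genes were higher and 12.6% lower. None of the 8 was called in NCI-H441 by edgeR, DESeq2 or limma-voom, and 0 had an unadjusted p below 0.05. There MUC21 stood at 900 and 817 CPM with p53 siRNA against 695 and 499 CPM with control siRNA. In NCI-H2110 MUC13 stood at 7.89 CPM with p53 siRNA and 3.70 CPM with control siRNA, a log2 ratio of 1.07.

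Of 21 other airway secretory proteins listed, 20 had a row and 13 passed the filter. Of these, 5 passed through NCI-H2110 alone, TFF1 and AGR3 among them. Of the other 8, NCI-H2110 was higher than the mean of the other lines for 4 and lower for 1, where 27.2% and 30.6% of all genes chosen the same way were. TFF1, a trefoil peptide that is secreted with MUC5AC, stood at 263 CPM with p53 siRNA and 366 CPM with control siRNA in NCI-H2110 and at no more than 0.258 CPM in any other library. AGR3, the neighbour and paralog of AGR2, stood at 56.2 and 65.1 CPM in NCI-H2110 and had 0 counts in 7 of the 8 other libraries. CLCA2 stood at 74.1 CPM with p53 siRNA and 30.2 CPM with control siRNA in NCI-H2110, a log2 ratio of 1.29.

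Other proteins of the same list were prominent in NCI-H441. LCN2, which binds bacterial siderophores, stood at 0.258 and 0.0754 CPM in NCI-H2087, 51.8 and 49.2 CPM in NCI-H441 and 18.1 CPM in NCI-H2110 with control siRNA. WFDC2 stood at 2.27 and 2.41 CPM in NCI-H2087, 99.7 and 68.5 CPM in NCI-H441 and 0.236 CPM in NCI-H2110. SLPI, a protease inhibitor, stood at 1.55 and 1.36 CPM in NCI-H2087, 21.7 and 16.4 CPM in NCI-H441 and 69.9 CPM in NCI-H2110, where it was highest. SCGB1A1, the defining secretoglobin of club cells, did not pass the filter and SCGB3A1 had 0 counts in all 10 libraries. With p53 siRNA 0 of the 13 were called in NCI-H2087 and 0 in NCI-H441, by edgeR with or without pairing, DESeq2 or limma-voom, and 2 of the 13 had an unadjusted p below 0.05 in each line.

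**Figure D4:**
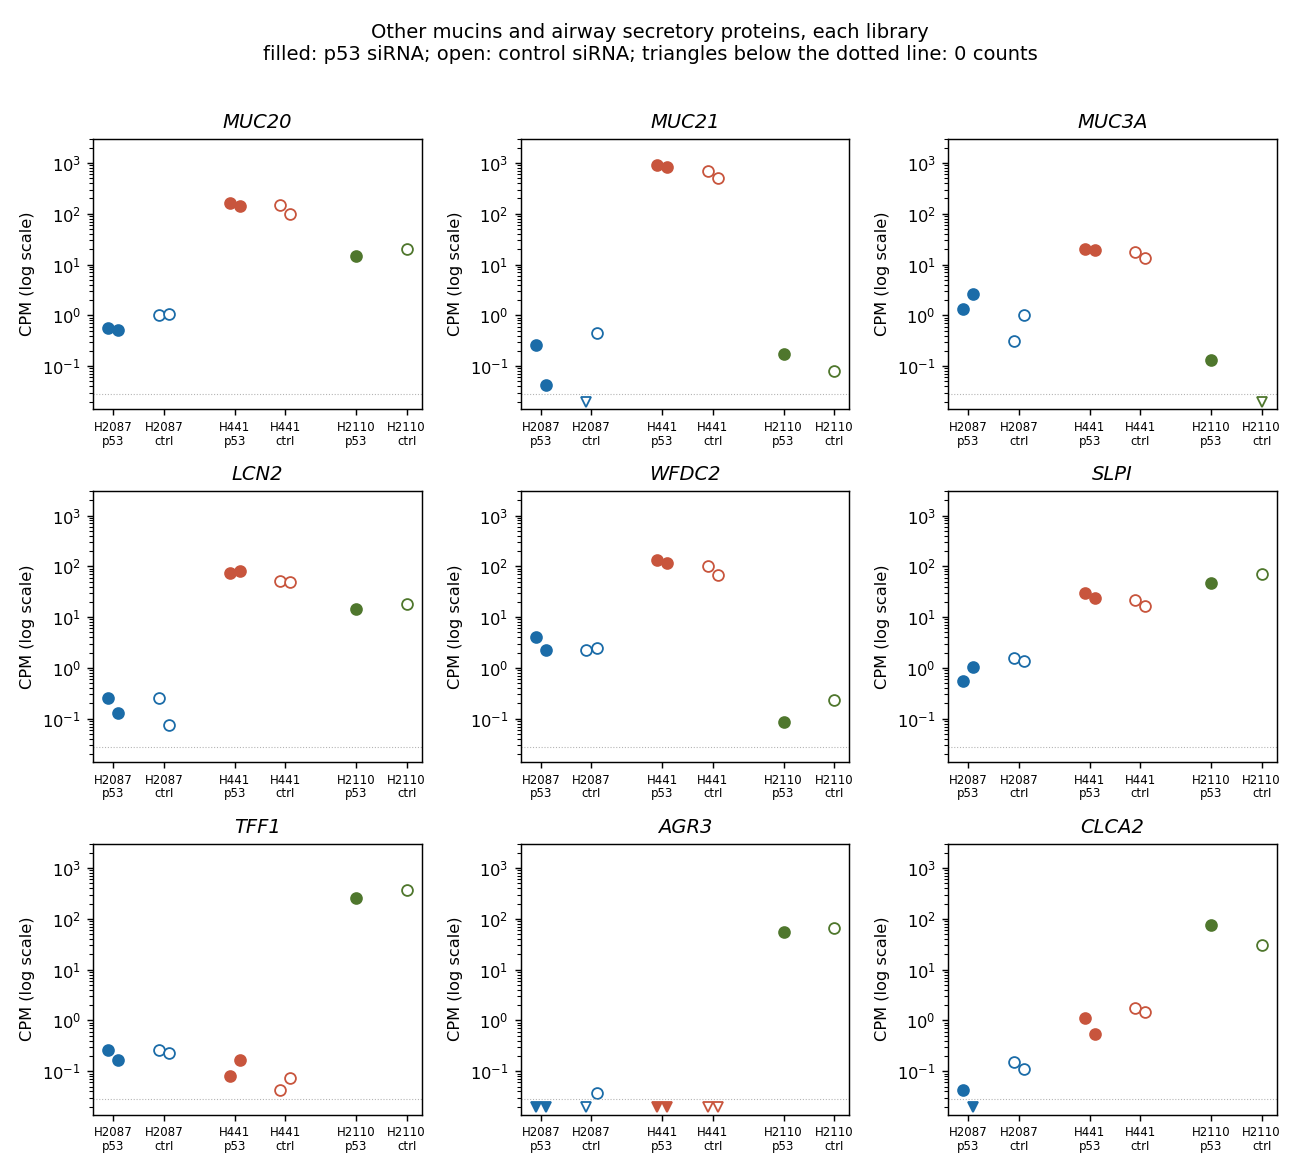
CPM on a log axis of 9 further mucins and secretory proteins in each library, with p53 siRNA libraries filled, control siRNA libraries open, and 0 counts as triangles. TFF1, AGR3 and CLCA2 are highest in NCI-H2110, whereas MUC20, MUC21, MUC3A, LCN2 and WFDC2 are highest in NCI-H441.

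Of 16 transcription regulators of secretory cells listed, 15 passed the filter. NCI-H2110 was higher than the mean of the other lines for 7 and lower for 3 of the 14 that did not pass through it alone. Of all genes chosen the same way, 27.2% were higher and 30.6% lower. ERN2, the IRE1 paralog of mucous epithelia, passed through NCI-H2110 alone. It stood at 11.0 CPM with p53 siRNA and 11.5 CPM with control siRNA in NCI-H2110. No other library held more than 0.123 CPM of it. EHF, an epithelial ETS factor, was at 0.103 and 0.0377 CPM in NCI-H2087, 27.7 and 31.5 CPM in NCI-H441 and 15.4 CPM in NCI-H2110 with control siRNA. NOTCH3 was at 14.7 and 16.5 CPM in NCI-H2087, 54.8 and 32.6 CPM in NCI-H441 and 189 CPM in NCI-H2110 with control siRNA.

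With p53 siRNA, 2 of the 15 regulators rose in NCI-H2087 and 0 fell, where 4.98% of all genes rose and 3.69% fell. SPDEF, the ETS factor that drives goblet cell differentiation in mouse airway, rose by 2.33 ± 0.33 (adjusted p = 0.00352), with 11.4 and 7.94 CPM against 2.06 and 1.77 CPM (adjusted p = 0.0628 without control siRNA library 2). HES1, a target of Notch signalling, rose by 1.32 ± 0.32 (adjusted p = 0.0333), with 19.0 and 22.5 CPM against 9.69 and 6.97 CPM; limma-voom did not call it (adjusted p = 0.0637), nor did edgeR without any 1 of the 4 NCI-H2087 libraries (adjusted p of 0.0596 to 0.252). None of MUC5AC, MUC5B and AGR2 was called as higher beside it. In the paired fit 4 regulators were called as higher and 4 as lower, where 12.8% and 12.6% of all genes were. NKX2-1, the lineage factor of lung epithelium, was one of those lower in the paired fit, at 245 and 180 CPM against 321 and 338 CPM (-0.65, adjusted p = 0.00445 paired; -0.63, adjusted p = 0.151 unpaired), and stood at 27.0 CPM against 55.2 CPM in NCI-H2110. NKX2-1 was named for its NCI-H2110 ratio, and its NCI-H2087 values were added after they had been seen.

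The O-glycosylation list had the most called genes in NCI-H2087 among the 5 pathway lists. Of 23 genes listed, 22 passed the filter, and 4 rose and 5 fell with p53 siRNA, where 4.98% of all genes rose and 3.69% fell; in the paired fit 4 were higher and 7 lower. Their median change was -0.09, beside -0.03 over all genes, since rises and falls balanced. All 9 called genes are named here, of which 6 were added to the 3 with the smallest p after their values had been seen.

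Among the enzymes that attach the first sugar of mucin O-glycans, GALNT1 rose by 1.80 ± 0.28 (adjusted p = 0.0052), with 4.66 and 4.23 CPM against 1.08 and 1.43 CPM, and GALNT3 rose by 1.21 ± 0.19 (adjusted p = 0.00541), with 96.1 and 95.3 CPM against 45.4 and 37.6 CPM. GALNT5, of the same family, fell by 2.08 ± 0.28 (adjusted p = 0.00319), with 39.0 and 23.2 CPM against 113 and 149 CPM. The arms did not overlap for any of these. The other called genes act later on the chain.

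ST3GAL1, which caps core 1 with sialic acid, rose by 1.75 ± 0.23 (adjusted p = 0.00276), with 17.9 and 21.9 CPM against 5.62 and 6.18 CPM. B3GNT3, which extends core 1, rose by 1.08 ± 0.19 (adjusted p = 0.0104). ST6GALNAC1, which makes the sialyl-Tn antigen, fell by 2.51 ± 0.44 (adjusted p = 0.0102), with 9.06 and 4.44 CPM against 30.4 and 46.3 CPM. ST6GALNAC2, FUT3, which makes Lewis antigens, and GCNT3, a branching enzyme of mucins, fell by 1.72 ± 0.37, 2.02 ± 0.39 and 1.57 ± 0.32 (adjusted p = 0.0222, 0.0152 and 0.0179), the first and the second of them at levels below 3 CPM. Limma-voom did not call ST6GALNAC2 (adjusted p = 0.0745) or FUT3 (0.0544), nor did a fit of the NCI-H2087 libraries alone (0.0656 and 0.0967, in that order). The calls of GALNT5 and ST3GAL1 held without each NCI-H2087 library in turn. Leaving out control siRNA library 2 gave an adjusted p of 0.053 for GALNT1, 0.0889 for GALNT3, 0.0906 for ST6GALNAC1, 0.124 for B3GNT3, 0.111 for GCNT3 and 0.0665 for FUT3, and leaving out control siRNA library 1 gave 0.0579 for GALNT1, 0.0532 for B3GNT3, 0.102 for GCNT3, 0.141 for ST6GALNAC2 and 0.0930 for FUT3. Leaving out p53 siRNA library 1 gave 0.0757 for GCNT3, 0.0782 for ST6GALNAC2 and 0.0588 for FUT3, and leaving out p53 siRNA library 2 gave 0.0605 for ST6GALNAC1, 0.0980 for ST6GALNAC2, 0.0553 for B3GNT3 and 0.0774 for FUT3.

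In NCI-H441 0 of the 22 genes were called by edgeR with or without pairing, DESeq2 or limma-voom, and 2 had an unadjusted p below 0.05. GALNT5 stood at 58.5 and 39.8 CPM with p53 siRNA and 38.8 and 36.4 CPM with control siRNA there. The difference between the changes of NCI-H2087 and NCI-H441 was called for GALNT5 (-2.46 ± 0.39, adjusted p = 0.0396) and for no other gene of the list, against 8 genes in the paired fit (3 higher and 5 lower, where 4.66% and 4.26% of all genes were) and 6 genes with DESeq2. The GALNT5 call was lost with limma-voom (adjusted p = 0.0644) and without any library of these lines other than p53 siRNA library 1 of NCI-H2087 (adjusted p of 0.0718 to 0.196). In NCI-H2110 none of 18 genes of the list passed 2-fold, and GALNT5 held no more than 0.197 CPM.

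**Figure D5:**
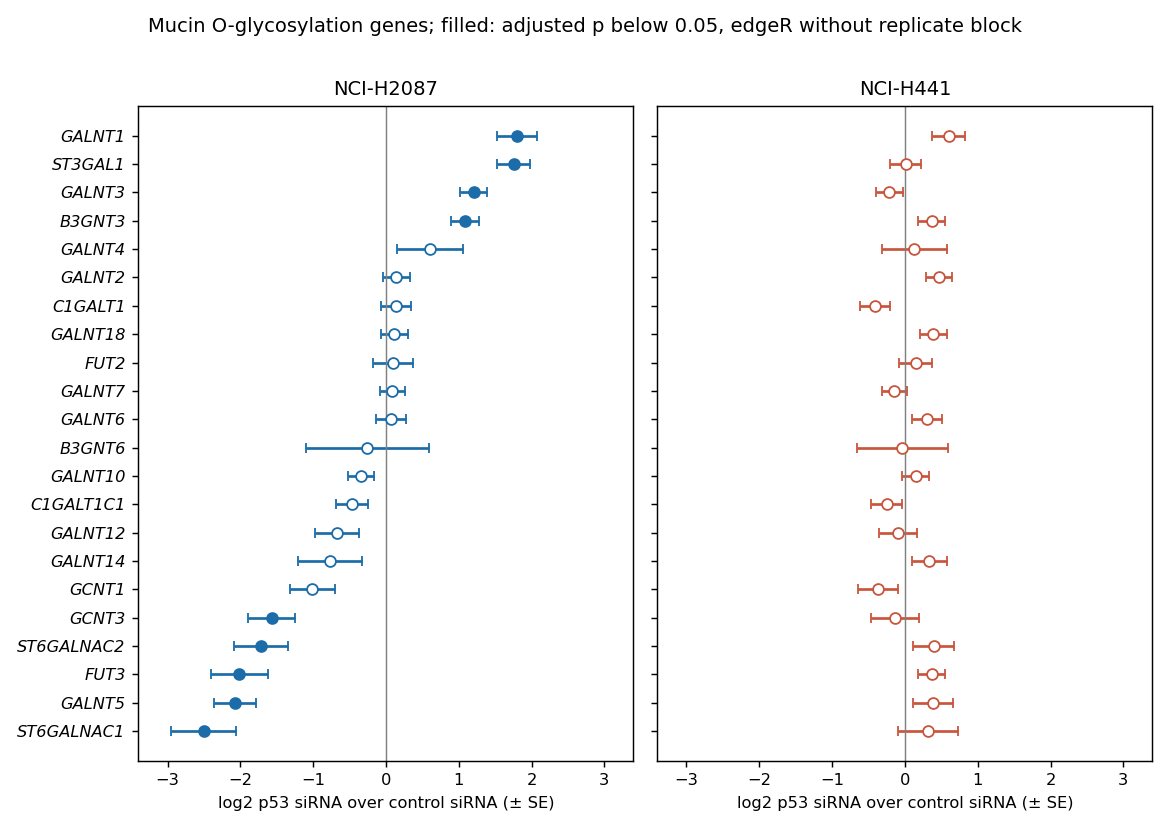
Log2 change with p53 siRNA ± SE of 22 mucin O-glycosylation genes in NCI-H2087 (left) and NCI-H441 (right), sorted by the change in NCI-H2087, with called genes filled. The 9 filled points, 4 to the right of 0 and 5 to the left, are all in NCI-H2087.

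The lines also differed in these enzymes. Between NCI-H2087 and NCI-H441 with control siRNA 13 of the 22 were lower in NCI-H2087 and 3 higher, where 20.1% and 22% of all genes were. The median log2 difference was -1.56, beside 0.02 over all genes. FUT3 stood at 0.825 and 0.603 CPM in NCI-H2087 against 31.4 and 28.3 CPM in NCI-H441, and GALNT14 at 0.825 and 0.452 CPM against 31.8 and 34.8 CPM. NCI-H2110 was higher than the mean of the other lines for 8 and lower for 9, where 30.8% and 28.9% of all genes were. GALNT18 stood at 1.13 CPM with p53 siRNA and 0.551 CPM with control siRNA in NCI-H2110, and at 25.2 CPM or more in every other library. GCNT1 held 0.0867 CPM and 0 counts in NCI-H2110.

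Of 18 genes of secretory granule release listed, 17 had a row and 16 passed the filter, and with p53 siRNA 2 fell in NCI-H2087 and 0 rose, where 3.69% of all genes fell and 4.98% rose. RAB27B, a small GTPase that docks secretory granules, fell by 1.99 ± 0.44 (adjusted p = 0.0236), with 7.78 and 3.13 CPM against 22.0 and 21.2 CPM. SYTL4, which binds RAB27 proteins, fell by 1.22 ± 0.32 (adjusted p = 0.0462), with 6.24 and 4.48 CPM against 10.5 and 14.5 CPM. In the paired fit 5 were lower and 1 was higher, where 12.6% and 12.8% of all genes were. None of the 16 was called in NCI-H441 by edgeR, DESeq2 or limma-voom, and 0 had an unadjusted p below 0.05. The RAB27B call was lost without either control siRNA library or p53 siRNA library 2 of NCI-H2087 (adjusted p of 0.102 to 0.124). The SYTL4 call was lost without any 1 library of NCI-H2087 or either control siRNA library of NCI-H441 (adjusted p of 0.0667 to 0.310).

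Markers of other cell types moved beside these changes. Of 9 alveolar type 2 markers tested, 1 passed the filter through NCI-H2087 alone and 1 through NCI-H2110 alone. With p53 siRNA in NCI-H2087, 4 of the 9 fell (8 in the paired fit) and 0 rose. Of all genes, 3.69% fell (12.6% in the paired fit). The summed level of the alveolar markers was 173 and 63.0 CPM with p53 siRNA and 763 and 847 CPM with control siRNA. SFTPC had 0 counts in both p53 siRNA libraries. SFTPB, a surfactant protein, fell by 4.05 ± 0.41 (adjusted p = 0.00111), with 1.79 and 0.803 CPM against 15.1 and 27.8 CPM, and its change differed from that in NCI-H441 by -4.09 ± 0.52 (adjusted p = 0.0258), a call lost without any library of these lines other than p53 siRNA library 1 of NCI-H2087 (adjusted p of 0.0564 to 0.144). In NCI-H441 the summed level was 3071 and 1438 CPM with p53 siRNA and 2736 and 1195 CPM with control siRNA, with 0 of 9 called by edgeR, DESeq2 or limma-voom or at an unadjusted p below 0.05, and the sum was higher in library 1 of each arm there, as were MUC16 and MUC4. In NCI-H2110 it was 61.7 CPM and 69.6 CPM. The part of these markers in the change of SCGB3A2, AGR2 or the glycosylation genes was not tested.

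Of 6 basal and squamous markers tested in NCI-H2087, 3 rose and 2 fell with p53 siRNA, where 4.98% of all genes rose and 3.69% fell. Their summed level was 143 and 119 CPM against 110 and 119 CPM. KRT15 rose by 1.67 ± 0.20 (adjusted p = 0.00238) and ITGB4 by 0.97 ± 0.17 (adjusted p = 0.00823; 0.0781 without control siRNA library 1 and 0.0854 without library 2), while TP63 fell by 2.44 ± 0.30 (adjusted p = 0.00248). KRT5 and KRT14 did not pass the filter. The summed level of immune and endothelial markers was 257 and 364 CPM against 115 and 135 CPM. Nearly all of it was CD68, a lysosomal protein of macrophages that other cells also express. PTPRC, the defining leukocyte marker, had 0 counts in both p53 siRNA libraries and was detected in control siRNA library 1. It did not pass the filter. Of 6 ciliated markers tested and 5 intestinal and gastric markers tested, edgeR called 0 in NCI-H2087 or NCI-H441, with 1 of each list at an unadjusted p below 0.05 in NCI-H2087 and none in NCI-H441; DESeq2 called 1 ciliated marker in NCI-H2087. Limma-voom called 0 and the paired fit 1 ciliated marker, as lower in NCI-H2087, and the gastric and intestinal list summed to no more than 3.66 CPM in any library. Of 3 fibroblast markers tested 0 were called in either line by edgeR, DESeq2 or limma-voom or had an unadjusted p below 0.05, with sums of no more than 68.2 CPM.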

How the data were processed

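Per the labels' protocols, extraction used an RNeasy Plus kit and library preparation a Lexogen mRNA kit; they do not say whether strand was kept. The authors deposited a table of whole-number counts per Ensembl gene, not normalized. Bowtie2, RSEM 1.2.12 and hg19 are listed in the submitters' processing notes without roles, so whether the counts are rounded RSEM estimates, which could split reads between similar genes, is not given in the sources used here. All values here were computed from the deposited counts in R 4.3.3. Of 57736 IDs, 17978 passed filterByExpr on the 6 groups, with 99.96% of the counts. Library sizes were scaled by TMM, and edgeR 4.0.16's quasi-likelihood test was fitted to all 10 libraries, with 1 mean per group (4 residual degrees of freedom) or, for the change across the 3 lines and the level of NCI-H2110, line plus siRNA (6 residual degrees of freedom). Tests were two-sided, with Benjamini-Hochberg adjustment over all genes tested. NCI-H2110 arms were compared as log2 ratios (prior count 2), without a test, for genes that reached 50 counts in one library or the other. Exon lengths came from GENCODE 29 and promoters from RefSeq, with chromosome 8 left out of the promoter background. The tests were run first on simulated counts.

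Differences between replicate libraries correlated between the arms of a line, with r = 0.636 in NCI-H2087 and 0.674 in NCI-H441 over 9337 genes. These r were taken on log2 counts divided by library sizes applied by row order instead of by library. Same-numbered libraries of a line shared the divisor of each gene, which enters both differences and can raise r. How far such libraries deviated together is therefore not shown by these r. The labels do not say how same-numbered libraries are related. A second fit, the paired fit, took the number as a replicate block, and its values stand beside the results it changes. The block takes up residual degrees of freedom, so the paired fit has fewer than the fit without it. Across lines the r taken in the same way was -0.06 with control siRNA and 0.18 with p53 siRNA. Libraries of different lines did not share these divisors, so the r within and across lines are not comparable. No library was a copy of another. The check of the knockdown itself is not reported here.

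The genes described and the lists around them were chosen with earlier results of these data known. All 10 genes were to be named, together with up to 3 called genes per list and comparison, by smallest p, up to 2 per list by size of the NCI-H2110 ratio, and the single gene most like each member. Alternatives were other library scalings, filters on low counts, DESeq2 1.42.0, limma-voom (limma 3.58.1), the replicate block, single lines, other prior counts and leaving out each library in turn.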

Additional observations from a re-analysis of the deposited data

Results flagged for a closer look

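For GALNT5 the change with p53 siRNA in NCI-H2087 differed from that in NCI-H441 by -2.46 (log2, edgeR adjusted p = 0.0396). The same difference was -4.09 for SFTPB (adjusted p = 0.0258). The GALNT5 and SFTPB calls were lost without any of 7 of the 8 libraries of these lines, all but p53 siRNA library 1 of NCI-H2087 (adjusted p of 0.0718 to 0.196 for GALNT5 and 0.0564 to 0.144 for SFTPB). MUC4 was singled out because both same-numbered pairs were lower with p53 siRNA in NCI-H2087 and both were higher in NCI-H441. The difference between its changes was -0.73, with adjusted p = 0.634 unpaired and 0.0403 in the paired fit.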

How the results depend on the processing

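Calls within a line rest on 2 libraries per arm, and SCGB3A2, TFF3 and BPIFB1 on at most 19 counts in any library. For p53 siRNA in NCI-H2087, 1560 genes were called, 2700 with no filter on low counts, 4571 with the replicate block and 175 to 1815 when 1 library was left out (175 without control siRNA library 2, 360 without control siRNA library 1 and 642 without p53 siRNA library 2 of that line). In NCI-H441 1 gene was called, 69 with no filter, 25 with DESeq2, 75 with the block, 0 with that line's libraries alone and 0 to 2 with 1 library left out. The difference between these changes had 74 calls, 810 with no filter, 459 with DESeq2, 31 with limma-voom, 1604 with the block and 0 to 90 with 1 library left out. Across the 3 lines there were 71 calls, 1123 with no filter, 609 with DESeq2 and 2 to 118 with 1 library left out. NCI-H2087 over NCI-H441 had 7568 calls, and 4693 to 7850 with 1 library left out. The cause of these shifts was not tested.

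Several changes that were not called turned sign. On library totals alone MUC5B in NCI-H2087 was -0.14 and MUC4 across the lines -0.046, and with NCI-H2087 and NCI-H441 only, MUC4 was -0.0108 and MUC16 -0.060 across the lines. With 1 library left out, changes in NCI-H2087 ran from -0.15 to 0.65 for MUC1, -0.26 to 1.22 for MUC5AC and -0.56 to 0.77 for MUC5B. In NCI-H441 they ran from -0.14 to 1.09 for MUC4, -4.03 to 3.15 for MUC5AC and -0.77 to 1.36 for MUC16. The difference ran from -0.66 to 0.14 for MUC1, -2.69 to 4.49 for MUC5AC and -2.23 to 0.068 for MUC16. Across the lines the range was -0.15 to 0.21 for MUC4, -0.12 to 0.27 for MUC5AC and -0.19 to 0.67 for MUC16. AGR2 in NCI-H2087 over NCI-H441 ran from -0.29 to 0.52, and SCGB3A2 in NCI-H2110 over the others from -1.81 to 1.49.

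On library totals the median change of all genes in NCI-H2087 was -0.21 in place of -0.03, and 33.2% of calls were higher in place of 57.4%; for the difference between lines 46.5% were higher in place of 58.1%. In NCI-H2087 AGR2 was lower with p53 siRNA under each alternative run, and SCGB3A2 under each except DESeq2, which gave it no adjusted p. The block across lines, whose numbers are not known to pair libraries of different lines, called MUC5AC in NCI-H2087 over NCI-H441 (adjusted p = 0.0152). The block also called 1 basal marker in NCI-H441, as higher, in place of 0, and 1 immune or endothelial marker higher and 1 lower in NCI-H2087 in place of 1 higher.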

Other observations

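Per kilobase of exon in NCI-H2110, MUC5AC held 29.5 CPM with p53 siRNA and 29.6 CPM with control siRNA, and MUC5B held 40.5 CPM with p53 siRNA and 34.3 CPM with control siRNA. With 1 library per arm neither difference has a replicate check. MUC5B was the most abundant of the listed genes after AGR2 by total CPM in both NCI-H2110 libraries, ranking as gene 123 with p53 siRNA and gene 172 with control siRNA.

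In NCI-H441 library 1 exceeded library 2 in both arms for MUC1 (1.19-fold with p53 siRNA and 1.43-fold with control siRNA), MUC4 (1.73-fold and 2.38-fold), MUC16 (3.01-fold and 3.45-fold) and AGR2 (1.47-fold and 1.18-fold). For MUC4 and MUC16 this spread between numbers was larger than any ratio of p53 siRNA over control siRNA within a number in that line.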
